A study of Mus musculus with 18 samples.

Results

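The comparison of stimulated with resting Th2 cells rested on 2 of the 8 RNA-seq libraries of the series, 1 of each state, and on the 10940 of 43432 listed genes whose scaled reads averaged at least 50 over that pair. Both libraries came from CD4 T cells of C57BL/6 mice (C57BL/6 J in the methods), cultured with IL-4, anti-Ifn-gamma and IL-2 on plates that carried anti-CD3 and anti-CD28 antibodies. The labels give 5 days for this culture, and the study's methods give a shorter time on the coated plates before transfer to uncoated ones. During the last 4 h the resting cells sat in fresh medium and the stimulated cells received PMA/Ionomycin, a phorbol ester that activates protein kinase C and Ras together with an ionophore that lets calcium into the cytosol, so the antigen receptor itself was bypassed. Both states shared the rest of the handling. The cells were cross-linked with 254 nm ultraviolet light and lysed. By the study's methods each preparation used cells of 3 mice, and nuclei and debris were spun out of the lysate, although nuclear RNAs such as small nucleolar RNAs were still read. Polyadenylated RNA was then taken on oligo-dT beads. A value is the number of reads of a gene divided by the size factor of its library, called scaled reads below. A change is the difference of log2(value + 1), stimulated minus resting, and "higher" or "lower" means at least 2-fold on that scale. The lowest mean inside the minimum belonged to Paox (50.01) and the highest outside it to Grp (49.97). With 1 library a side there is no replicate and therefore no test. Where an interval is given, it is an exact conditional binomial 95% interval of the ratio and covers counting error only.

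The resting library held 31042504 gene reads and the stimulated library 25247967, within the range of 24154849 to 31042504 over the 8 libraries. Genes that mark Th2 cells were read in both states. Cd4 stood at 21518 scaled reads at rest and 20061 after stimulation, and Gata3, the factor that directs the Th2 programme, at 3584 and 10567. Of 15 Th2 markers, 13 passed the minimum, and the receptors Ptgdr2 (0 and 1.13 scaled reads) and Il17rb (36.6 and 2.27) did not. Markers of other cells took small shares. Of 10 B cell markers 7 passed, and the list summed to 0.00522% of the resting and 0.00492% of the stimulated library. Of 15 listed myeloid markers 2 passed, with 0.00195% and 0.00172% of reads, and S100a8, S100a9, C1qa and C1qb were at 0 in both. The antibody genes Ighm (9634 and 8267 scaled reads) and Igkc (3540.1 and 3386), named after their values were seen, were read as well. Of 8 measured dendritic cell and antigen presentation markers, Flt3 and Zbtb46 were higher, and this list took 0.0233% and 0.0299%. Of 12 stromal and endothelial markers 3 passed and Epcam was higher (136 to 837), with 0.00586% and 0.00855% of reads in the 2 states, while Col1a2, Col3a1, Dcn and Krt8 were at 0 in both. Of 9 NK cell markers 3 passed and none was 2-fold apart, and of 10 mast cell and basophil markers 1 passed. No marker of red cells or platelets passed. Cd8a stood at 1331 and 1410.1 scaled reads, against 10516 and 12771 in the resting and stimulated CD8 T cell libraries of the series. The part of such cells in the results was not tested. In bulk RNA, fewer cells of a type and less RNA per cell cannot be told apart. Listed at 0 in both libraries were 6 of the protein-coding mitochondrial genes, mt-Atp6, mt-Atp8, mt-Co2, mt-Co3, mt-Nd3 and mt-Nd4l. Others were read, such as mt-Co1 at 126093 scaled reads at rest and 129515 after stimulation.

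Th2 cells are the helper T cells of allergy and of immunity to worms, and their signature products are the interleukins encoded by Il4, Il5 and Il13. In T cells, calcium activates calcineurin, which lets NFAT factors enter the nucleus, while protein kinase C and Ras signals activate NF-kB and AP-1. The mRNAs of many cytokines carry AU-rich elements in their 3′UTRs, which recruit proteins that shorten the life of the RNA. T cells that have met antigen before transcribe such genes rapidly when they are triggered again.

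Sequences are shown for the promoters of 3 cytokine genes with large changes that hold the NFAT motif TGGAAAA. Each stretch ends at the base before the RefSeq start site (GRCm38.p6) and covers 200 bases. Capitals mark the NFAT motif TGGAAAA, here found on the opposite strand as TTTTCCA, and the TATA motif TATAAA on either strand.
Il2 (chr3:37125955-37126154, minus strand): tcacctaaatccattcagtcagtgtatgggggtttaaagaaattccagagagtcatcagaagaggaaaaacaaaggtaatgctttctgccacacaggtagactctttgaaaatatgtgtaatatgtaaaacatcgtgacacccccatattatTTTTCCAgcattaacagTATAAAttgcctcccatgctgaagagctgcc
Il4 (chr11:53618666-53618865, minus strand): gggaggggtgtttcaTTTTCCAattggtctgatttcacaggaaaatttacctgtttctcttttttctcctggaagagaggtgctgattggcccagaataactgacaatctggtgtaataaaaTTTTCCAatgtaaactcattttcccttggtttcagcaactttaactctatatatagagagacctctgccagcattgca
Il13 (chr11:53634703-53634902, minus strand): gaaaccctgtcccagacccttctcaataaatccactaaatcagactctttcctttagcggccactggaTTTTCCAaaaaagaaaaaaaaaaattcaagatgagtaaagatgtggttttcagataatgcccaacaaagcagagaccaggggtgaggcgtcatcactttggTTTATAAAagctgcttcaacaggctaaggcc
The NFAT motif began 48 bases before the start in Il2, 185 and 78 bases before it in Il4 and 132 bases before it in Il13. Il2 and Il13 also held TATAAA, 31 and 29 bases before the start. Il3 and Il5 held neither TGGAAAA nor TATAAA within 250 bases before to 50 after the start. Their changes were larger than those of Il4 and Il13. Of the 18 measured cytokine genes with a promoter sequence, 22.2% (4 of 18) held TGGAAAA within 250 bases before to 50 after the start. It occurred in 4.53% of 8219 promoters of tested genes, 5.49% of those of higher genes and 6.10% of all 18143 promoters, expressed or not. TATAAA was held by 33.3% of the cytokine promoters, against 6.50% of tested promoters. A match is a description of the letters, and no binding was measured here.

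Across all 10940 genes, 1124 (10.3%) were higher and 947 (8.66%) were lower after stimulation. The counts of every gene list below are to be read beside these shares. At 4-fold the counts were 297 higher (2.71%) and 117 lower (1.07%), at 8-fold 126 and 20, and at 32-fold 29 and 2, so the upper tail was the longer. The median change was 0.04 and 61.1% of genes lay within 1.5-fold. The 1124 higher genes took 6.17% of the resting and 17.6% of the stimulated library, and the 947 lower genes 6.68% and 2.12%. The balance differed with the level. Of 1189 genes with a mean of 5000 scaled reads or more, 161 were higher and 35 lower, whereas of 2175 genes with a mean between 50 and 250, 254 were higher and 354 lower. The split depends on the scale, since the sum of scaled reads was 1.18 times as large in the stimulated library. With both libraries brought to the same total, 768 genes were higher and 1520 lower, and with both brought to the same sum of ribosomal protein reads, 613 were higher and 1947 lower. The median of all genes was then -0.20 and -0.35.

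**Figure D1:**
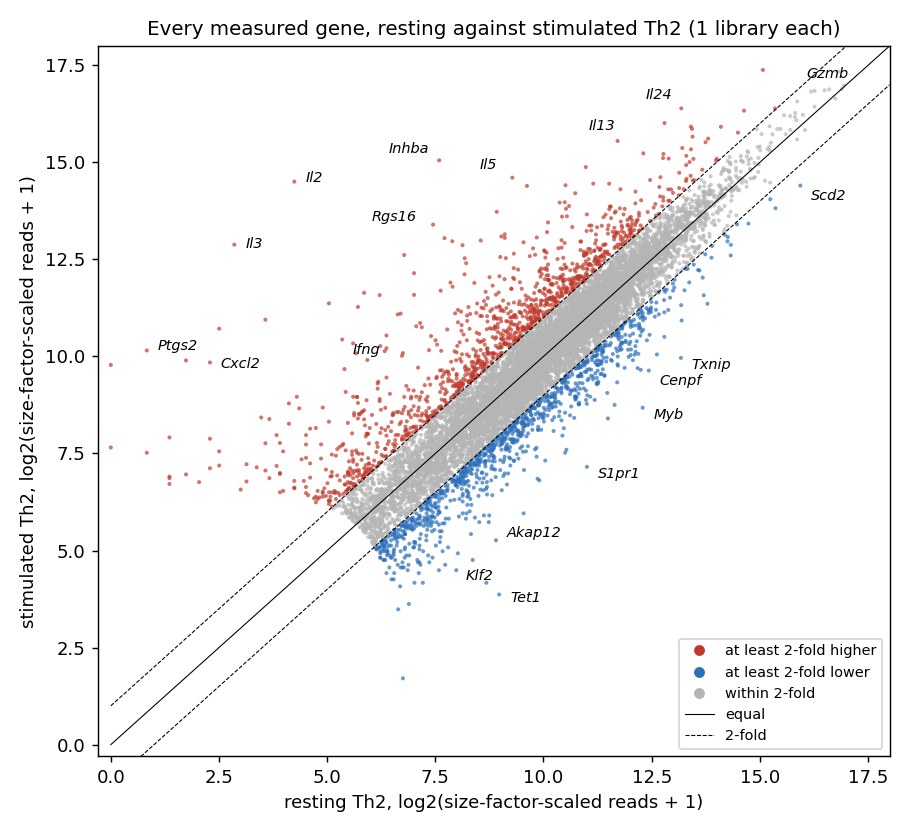
Scaled reads of 10940 genes in resting (x axis) and stimulated (y axis) Th2 cells, each as log2(value + 1), 1 library a side and 1 point a gene. The 1124 red genes were at least 2-fold higher and the 947 blue genes at least 2-fold lower, and Il2 and Il3 lie farthest above the line of equal values.

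Interleukins and other cytokines were higher as a group. Of 31 cytokine genes on the list 21 were measured, 17 of them higher and 1 lower. The median change of those measured was 3.48 against 0.04 for all genes. Some, among them Il2, Il3, Il1a and Il31, passed the minimum only through their stimulated value, which fixed their direction in advance. The share of the whole list in the library went from 0.249% to 1.35%. The T cell growth factor Il2 had the largest change of all genes tested, from 17.9 scaled reads (23 reads) at rest to 23234 (20514 reads), a ratio of 1297 (95% interval 864 to 2047). Il3, a growth factor of mast cells and basophils, went from 6.23 to 7537 (8 and 6655 reads), a ratio of 1210.1 (614 to 2804). Neither mRNA had more than a trace at rest.

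The 3 genes that define the Th2 response were each more than 10-fold higher. Il4, which instructs the Th2 fate and IgE switching, stood at 1439 scaled reads at rest and 16079 after stimulation, a change of 3.48. Il13, which acts on airway and gut epithelium, went from 3356 to 48058, a change of 3.84. Il5, the growth factor of eosinophils, went from 621 to 24943, a change of 5.33. The resting library already held 1848 reads of Il4, 4310 of Il13 and 797 of Il5. Il9, a further type 2 cytokine, stayed under the minimum at 3.11 and 15.9 scaled reads.

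Cytokines outside the type 2 set were higher too. Il24 went from 9312 to 85919.6, Il10, an inhibitory cytokine, from 11065 to 59617, and Lif from 17561 to 61841. Il21, which helps B cells, went from 2015 to 30141, a change of 3.90. Csf2, which encodes GM-CSF, went from 237 to 8012, a change of 5.08. Ifng, the signature product of Th1 and CD8 cells, went from 39.7 to 1385, and Il17a, that of Th17 cells, from 25.7 to 284. Areg, an epidermal growth factor ligand, went from 31.9 to 2641. Il1a had 3 reads at rest and 841 after stimulation, a ratio of 408 (139 to 1981), and the itch cytokine Il31 had 2 and 212, a ratio of 154 (42.2 to 1282). Several members stayed within 2-fold. Osm changed by -0.34, Il16 by -0.59 and Ebi3 by 0.66. Flt3l was the lower gene at -1.75, and 96.8% of its transcript sequence is shared with other genes, so its reads are uncertain.

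Levels of different genes can be compared only per length. In scaled reads per kilobase of transcript, Il24 ranked 5 among 10401 protein-coding genes in stimulated cells and 114 in resting cells. Il21 ranked 9 (348 at rest), Il10 ranked 15 (104), Il13 18 (551), Il4 38 (672), Il5 70 (4636) and Il2 54 (10199). Per kilobase, stimulated cells held 39882 scaled reads of Il13, 27253 of Il4, 20309 of Il2 and 16228 of Il5. Ifng, at 1147, ranked 2105.

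Chemokines had the same direction. Of 17 on the list 9 were measured, 7 of them higher and 1 lower, with a median of 1.97. Ccl1 and Cxcl2 passed the minimum only through their stimulated value, which fixed their direction in advance. The macrophage inflammatory protein genes Ccl3 and Ccl4 went from 73.2 and 109 scaled reads to 3060.2 and 6259. Ccl1, the ligand of Ccr8, had no read at rest and 177 after stimulation, at least 69.1-fold higher by the exact 95% limit and 85.8-fold higher against a floor of 3 reads. The neutrophil attractant Cxcl2 went from 5 to 811 reads, and the related Cxcl3 and Cxcl5, outside the list but among the 40 largest changes, went from 374 to 8116 and from 128 to 3073 scaled reads. Ccl22, a ligand of Ccr4, went from 754 to 2603. Ccl6 was the lower gene, from 77.9 to 31.7.

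Of 11 measured ligands of the TNF family 8 were higher and 0 lower, with a median of 1.98. Cd40lg, which T cells use to license B cells and dendritic cells, went from 785 to 21518 scaled reads, a change of 4.78. Tnf went from 549.7 to 8507, Tnfsf11 (RANKL) from 635 to 6421, Tnfsf14 (LIGHT) from 229.7 to 3830.4 and Tnfsf8 (CD30 ligand) from 7119 to 66095. Tnfsf8 alone took 0.231% of the stimulated library. The lymphotoxin genes Lta and Ltb, neighbours of Tnf, changed by 0.57 and 0.56 and did not pass 2-fold.

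The receptors of the TNF family had no such shared direction. Of 14 measured, 4 were higher and 1 lower, beside 10.3% and 8.66% of all tested genes. The median of the 14, 0.17, turned negative when libraries were scaled to the same total. Tnfrsf4 (OX40), a costimulatory receptor, went from 10624 to 32942 and Cd27 from 1151 to 3213. Tnfrsf8 (CD30), the receptor of the Tnfsf8 product, went the other way, from 27304 to 10982, a change of -1.31. Tnfrsf18 (GITR), next to Tnfrsf4 in the genome, changed by -0.16.

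Secreted growth factors and proteases were also among the largest changes. Of 27 measured, 14 were higher and 0 lower, with a median of 1.31. Inhba, the subunit of activin A, went from 192 to 33998 scaled reads, a change of 7.46. The collagenase gene Mmp13 went from 6 to 1484 reads and the stromelysin gene Mmp10 from 559 to 5926 scaled reads. Hbegf, a ligand of the epidermal growth factor receptor, went from 279 to 7465, Pdgfb from 237 to 3557 and the proprotein convertase Furin from 1456 to 21789.6. Olr1, which encodes a receptor for oxidised LDL, went from 10.9 to 1975. Ptgs2 (COX-2), the inducible enzyme of prostaglandin synthesis, had 1 read at rest and 1006 after stimulation, a ratio of 1463 with an interval from 262 to 57859. Mst1r, a receptor tyrosine kinase gene, had 0 and 776 reads, at least 305-fold higher by the exact 95% limit and 376-fold higher against a floor of 3 reads. In all, 17 genes had 10 reads or fewer at rest and 100 or more after stimulation, and 3 genes the reverse. Such genes passed the minimum only through the state where they were high, which fixed their direction in advance.

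The motif of AP-1, TGANTCA on either strand, was more frequent in promoters of higher genes. It occurred in 4.65% of the promoters of tested genes, in 8.24% of those of higher genes and in 12.4% (26 of 209) of those at least 4-fold higher. TATAAA went from 6.50% to 17.2% in the same sets. The 100 bases before the start of Mmp13 and of Olr1 show the motif close to the start, with AP-1 and TATA motifs in capitals.
Mmp13 (chr9:7272414-7272513, plus strand): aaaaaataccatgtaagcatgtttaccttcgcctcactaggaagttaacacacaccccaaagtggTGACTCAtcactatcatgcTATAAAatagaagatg
Olr1 (chr6:129507166-129507265, minus strand): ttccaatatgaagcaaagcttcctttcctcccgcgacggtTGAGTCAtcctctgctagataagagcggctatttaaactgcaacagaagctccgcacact
The AP-1 motif began 35 bases before the start in Mmp13 and 60 bases before it in Olr1. In the set of all 18143 promoters, expressed or not, TGANTCA occurred in 7.09% and TATAAA in 12.8%, both above the share in tested genes.

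Immediate-early transcription factors, whose genes are switched on without new protein synthesis, were higher at 4 h. Of 22 measured, 16 were higher and 0 lower, with a median of 1.92. Egr1, Egr2 and Egr3 went from 209, 549 and 41.3 scaled reads to 8474, 9064 and 817. The orphan nuclear receptor Nr4a3 went from 56.8 to 3187, a change of 5.78, against 1.99 for Nr4a1 and 2.33 for Nr4a2. The EGR motif GCGNGGGCG occurred in 9 of 18 promoters of this list (50%), against 10.6% of tested promoters.

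Of 22 measured AP-1 and BATF genes, 7 were higher and 1 lower. Fosl1 went from 49.8 to 1080.5, Junb from 640.0 to 4075 and Jun from 371 to 2113. Batf, a partner of IRF4 in T cells, went from 1679 to 4826. Fos itself stood at 298 and 249.2, a change of -0.26, and Fosl2 changed by 0.68. Nfil3, a repressor of the same structural family, went from 8365 to 4027.

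The NFAT and calcineurin list had no common direction, with a median of -0.04. Of 23 measured, 4 were higher and 1 lower, beside 10.3% and 8.66% of all tested genes. Orai1, the pore of the calcium channel, went from 315 to 2188, Nfatc1, which carries an inducible promoter, from 2097 to 6987, and Nfat5, the tonicity-responsive member, from 13740 to 46960. The related channel gene Orai2 was the lower gene, from 951 to 432. Nfatc2 changed by 0.36 and Nfatc3 by -0.88.

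NF-kB genes were largely higher. Of 33 measured, 20 were higher and 1 lower, with a median of 1.42, and the list took 0.357% of the resting and 0.853% of the stimulated library. Among subunits, Nfkb2 went from 1468 to 14303, Rel from 353 to 2634, Relb from 612 to 3434, Nfkb1 from 14311 to 50066 and Rela from 1950.3 to 6658. Inhibitors were higher as well. Nfkbid went from 296 to 5413, Nfkbia, which encodes the inhibitor that holds NF-kB in the cytosol, from 1082 to 9434, and the deubiquitinase gene Tnfaip3 (A20) from 2271 to 22428. Malt1 and Bcl10, parts of the complex that links protein kinase C to NF-kB, went from 6953 and 1044 to 35365 and 3441. Nfkbiz changed by 0.51.

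Many brakes on MAP kinase signals were higher. Of 20 measured phosphatases and SPRY, SPRED and RAS regulators, 10 were higher and 2 lower, with a median of 1.09. Spry1 went from 128 to 4529, a change of 5.14. The phosphatase gene Dusp2 went from 1101 to 11202, Dusp6 from 3513 to 20264 and Dusp4 from 1054 to 5979, while Dusp1 changed by 0.46 and Dusp7 by -0.19. The lower genes were Rasa3, a RAS GTPase-activating protein gene, from 1246 to 418, and Rasgrp1, an exchange factor that activates RAS, from 18728 to 8986. RGS genes and related brakes on G protein receptors had no shared direction, with a median of 0.18 that turned negative with scaling to the total. Of 15 measured, 3 were higher and 2 lower, beside 10.3% and 8.66% of all tested genes. The higher genes were Rgs16 from 174 to 10783, Rgs2 from 348 to 2227 and Rgs1 from 6992 to 38081, while Rgs14 (754 to 316) and the arrestin gene Arrb1 (5046 to 1649) were lower.

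Among 39 genes of the MAP kinase and PI3K paths, 4 were higher and 5 lower, beside 10.3% and 8.66% of all tested genes. Mapkapk2, a kinase that acts on AU-rich element binding proteins, went from 11150.5 to 51856 and its upstream kinase gene Map2k3 from 3251 to 13631. Pik3cg, a catalytic subunit of PI3 kinase, went from 9294 to 2558, Foxo3 from 2556 to 745 and the PI3 kinase inhibitor Pik3ip1 from 428 to 58.9.

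The chains of the antigen receptor stayed within 2-fold. Cd3d, Cd3e and Cd3g changed by -0.02, -0.15 and -0.31. Of 39 measured genes of the receptor and its kinases 10 were higher and 2 lower. Lcp2 (SLP-76), an adaptor below the receptor, went from 10854 to 62001, Zap70 from 2343 to 7683, and the receptor brakes Sla from 7599.5 to 35075, Cd5 from 2902 to 10630.4 and Cblb from 3222 to 8719.7. Grap2 (GADS), which binds the Lcp2 product, went the other way from 6245 to 2677, and Themis from 12444 to 4750.0.

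Of 25 measured checkpoint and costimulatory genes, 11 were higher and 1 lower, with a median of 0.93. The ligands Cd274 (PD-L1) and Pdcd1lg2 (PD-L2) went from 1326 and 866 to 15989 and 7054, and their receptor Pdcd1 from 1075 to 6534. Cd200 went from 2930.5 to 22406, Havcr2 (TIM-3) from 1104 to 4365, Btla from 4459 to 15746 and the activation marker Cd69 from 505 to 4287. Icos, the costimulatory receptor, was the lower gene, from 19522 to 8003, while Cd28 changed by 0.11 and Ctla4 by 0.69.

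**Figure D2:**
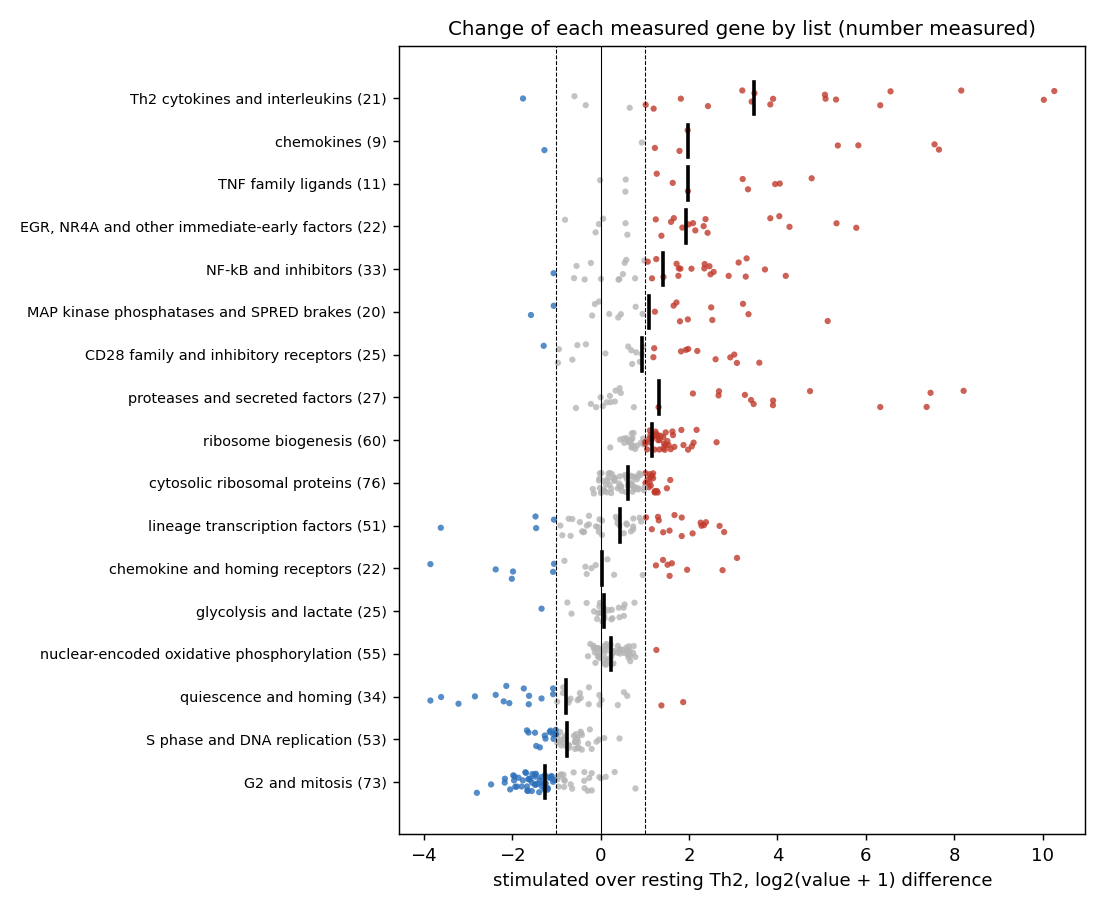
Change of each measured gene (points) in 17 of the gene lists, as stimulated minus resting log2(value + 1) of 1 library a side, with the list's median as a bar, the number measured in brackets and dashed lines at 2-fold. The bar of the cytokines lies at 3.48 and that of the G2 and mitosis genes at -1.26, and no gene of the S phase or G2 and mitosis lists passes the upper line.

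Receptors for cytokines were a mixed set, 4 of 32 higher and 4 lower, beside 10.3% and 8.66% of all tested genes. The sign of their median (0.08) changed with the scaling to the total. The chain that Th2 cells use to sense their own cytokine, Il4ra, went from 22742 to 10836, a change of -1.07. Il10ra went from 3370.4 to 1444 and Ifngr1 from 2653 to 1185, and Il9r from 160.4 to 28.3. The 4 higher genes were Csf1 (680.5 to 4829), Crlf2 (121 to 344), Il12rb1 (3949 to 10763) and Il15ra (302 to 815), of which Csf1 encodes a ligand. The high-affinity IL-2 receptor chain Il2ra went from 115463 to 166099, a change of 0.52. The other IL-2 receptor chains, Il2rb and Il2rg, changed by -0.20 and 0.95. Of 25 measured STAT, JAK and SOCS genes 4 were higher and 1 lower. Stat5a, which acts below that receptor, went from 1703 to 18877, a change of 3.47, against 0.71 for the neighbouring Stat5b and 0.78 for Stat6, the factor of the IL-4 receptor. Jak2 went from 25452 to 82534 and the kinase Pim3 from 821 to 6142, while the STAT inhibitor Socs2 went from 6197 to 2352.

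Receptors that guide T cells went in both directions. Of 22 measured, 8 were higher and 6 lower, and the median (0.02) was near 0 with a sign that changed with scaling. S1pr1, which lets T cells leave lymph nodes, went from 2052 to 142, a change of -3.85. Ccr7, which brings T cells into lymph nodes, went from 3333 to 643, Cxcr4 from 4144 to 1049.9 and the Th2-associated Ccr4 from 15261 to 7359. The higher receptors included Ccr3, shared with eosinophils, from 56.8 to 391, Ccr8 from 1802 to 4296 and Cxcr3, better known from Th1 cells, from 732 to 2094, together with the adenosine receptor Adora2a from 81.7 to 702. Of 19 integrins and adhesion genes 6 were higher and 2 lower. Itgav went from 4473 to 19433, Itgb8, which pairs with it, from 14.01 to 127 and Icam1 from 996 to 4461, whereas Itgb3, another partner of the Itgav product, went from 9358 to 1945 and Itga4 from 4678 to 1071.

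Factors of several T cell lineages were higher. Of 51 measured, 16 were higher and 4 lower. Gata3 went from 3584 to 10567, a change of 1.56. Tbx21, which encodes the Th1 factor T-bet, went from 417 to 2903, a change of 2.80. Bcl6 went from 219 to 784 and Irf1 from 2209 to 10613. Irf4, which was already at 33647, reached 54250.4, a change of 0.69, and Maf, which activates Il4, changed by -0.64. Myb, a factor of blood progenitors, had the largest negative change of this list, from 5014 to 409, a change of -3.61, and Ikzf4 (Eos) and Fli1 went from 2601 and 2571 to 938 and 936.

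Genes of quiescence were lower as a group. Of 34 measured, 14 were lower and 2 higher, with a median of -0.79, and S1pr1 and Ccr7 are members of this list too. Klf2, the factor that maintains S1pr1, went from 329 to 26.0, a change of -3.61. Txnip, a brake on glucose uptake, went from 9251 to 997, the FOXO target Sesn1 from 1566 to 357, Tsc22d3 (GILZ) from 914 to 199 and the cyclin-dependent kinase inhibitor Cdkn1b from 4414 to 1056. The higher genes were Btg1 from 2055 to 5338 and Slfn2 from 10088 to 36859.7. Foxo1 changed by 0.39 and Tcf7 by -0.68.

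The largest negative change among genes with a mean of at least 250 belonged to Tet1, an enzyme that oxidises methylated cytosine. It went from 502 scaled reads (645 reads) to 13.6 (12 reads), a change of -5.11, whereas Tet2 changed by 0.68 and Tet3 by 1.13. Among 43 chromatin regulators, 2 were higher and Tet1 was the lower gene, beside 10.3% and 8.66% of all tested genes. Kdm6b, a demethylase of histone H3, went from 431 to 4214. The scaffold gene Akap12 went from 477 to 37.4, Myo6 from 14163 to 2623 and the purine receptor P2rx7 had a change of -2.42.

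Genes of ribosome assembly were higher. All 60 measured genes of ribosome biogenesis had a change above 0, 39 were higher and 0 lower, and the median was 1.16. Their share of the library went from 0.765% to 1.33%. Rrp9 went from 391 to 2415, Polr1b, a subunit of RNA polymerase I, from 1434 to 5266, and Mybbp1a from 7562 to 20242, while Ncl and Npm1 changed by 0.70 and 0.44. Of 12 measured genes of the MYC network 3 were higher and 2 lower, beside 10.3% and 8.66% of all tested genes. The median of this network, 0.32, turned negative with ribosomal scaling. In that list Myc, a known activator of ribosome assembly genes, went from 4069.5 to 12116. Its antagonists Mxd3 and Mxd4, the lower genes, went from 340.2 and 2111 to 56.6 and 687. A link of these genes to the change in ribosome assembly was not tested. The ribosomal proteins themselves were less changed, 18 of 76 higher and 0 lower with a median of 0.62, and many share sequence with pseudogenes.

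Few genes of energy metabolism passed 2-fold, beside 10.3% higher and 8.66% lower of all tested genes. Of 25 glycolysis genes 0 were higher and 1 lower (Pdk1, from 4498 to 1783), and of 55 nuclear genes of oxidative phosphorylation 1 was higher (Uqcrq). The medians of these lists, 0.08 and 0.23, turned negative with scaling to the total. Of 21 transporters of amino acids, glucose and other metabolites 6 were higher, among them the glutamine transporter Slc1a5 from 6549 to 21115, the arginine transporter Slc7a1 from 6143 to 15573 and the folate carrier Slc19a1 from 635 to 2059, whereas the glucose transporter Slc2a1 changed by 0.86 and Slc2a3 by -0.14. None of 20 aminoacyl-tRNA synthetases passed 2-fold. In lipid synthesis, 6 of 39 genes were lower and 1 higher. Scd2, the desaturase that made up 0.259% of the resting library, went from 62663 to 21650.3, Scd1 from 7191 to 3246 and the sterol exporter Abcg1 from 549 to 169.9. Cyp11a1, which starts steroid synthesis and is expressed in Th2 cells, stood at 13817 and 14879.

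**Figure D3:**
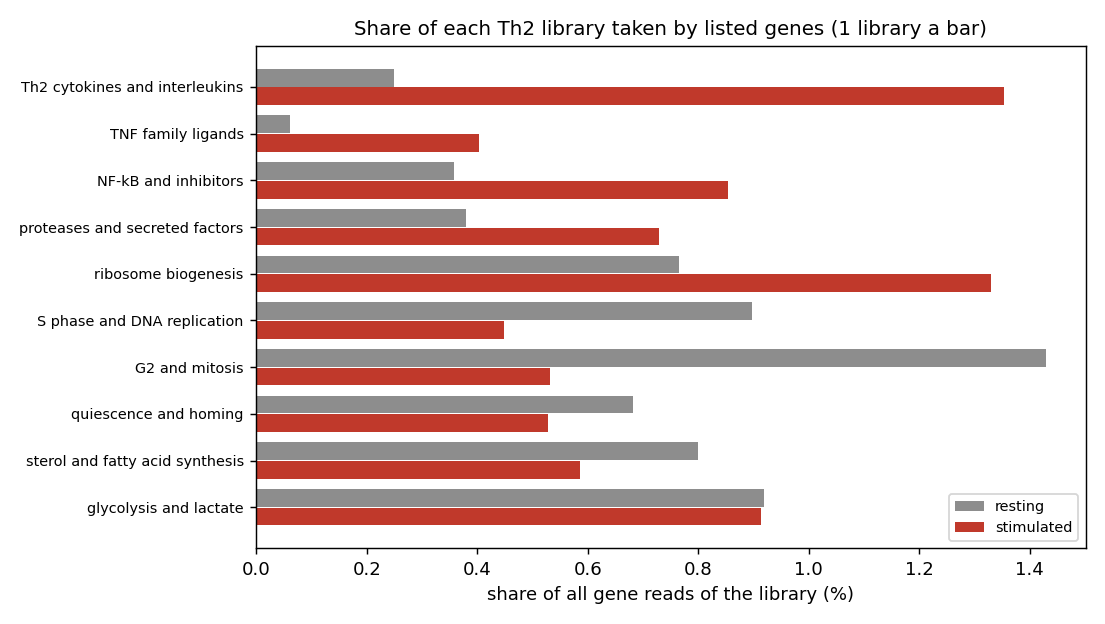
Share of all gene reads (x axis, %) taken by 10 gene lists in the resting (grey) and stimulated (red) Th2 library, 1 library a bar and no error. The cytokine share went from 0.249% to 1.35% and the G2 and mitosis share from 1.43% to 0.533%.

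Genes of S phase, G2 and mitosis were lower. Of 73 measured G2 and mitosis genes 49 were lower and 0 higher, with a median of -1.26. Of 53 genes of S phase 14 were lower and 0 higher, with a median of -0.75. Cenpf, a kinetochore protein, went from 5532 to 795, Aspm, a spindle pole protein, from 4623 to 830.2, and the phosphatase gene Cdc25b, which activates mitotic cyclin-dependent kinase, from 3753 to 835. The proliferation genes Mki67 and Top2a went from 42114 and 38715 to 14449 and 16969. The kinase gene Cdk1, in contrast, changed by -0.29, and the anaphase genes Ube2c and Ube2s by -0.20 and 0.79. In S phase, the helicase subunit Mcm6 went from 20588 to 7511, against -0.44 for Mcm2 and -0.52 for Mcm5, and the activator E2f2 from 4043 to 1274. Of 25 G1 cyclins, their inhibitors and related genes 3 were higher and 6 lower, and the median of 0.18 turned negative with scaling to the total. The kinase inhibitor gene Cdkn2c went from 1053 to 159, the pocket protein gene Rbl2 from 7095 to 1453 and Ccng2 from 4159 to 1159. Ccnd3 went from 4284 to 1769, while Ccnd2 changed by 0.93. The stress-responsive Plk3 and Gadd45a went from 288 and 28.8 to 4436 and 410.0.

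Promoters of these lists share sequence that the choice of genes did not use. The cell cycle homology region (CHR) TTTGAA, on either strand, occurred in 42 of 60 promoters of the G2 and mitosis list (70%), against 11.6% of tested promoters, and the NF-Y motif CCAAT in 70% against 39.1%. Both are known features of genes that peak in mitosis. Shown are the 4 genes with the largest negative changes among those with both motifs in the stretch from 100 bases before to 30 after the start, with both motifs in capitals.
Cenpf (chr1:189688057-189688186, minus strand): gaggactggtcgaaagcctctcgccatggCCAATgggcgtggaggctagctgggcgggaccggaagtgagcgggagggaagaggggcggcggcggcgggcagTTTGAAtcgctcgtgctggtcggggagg
Aspm (chr1:139454673-139454802, plus strand): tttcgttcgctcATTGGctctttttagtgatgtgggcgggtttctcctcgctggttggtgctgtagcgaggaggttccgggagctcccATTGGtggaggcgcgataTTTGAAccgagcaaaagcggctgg
Kif23 (chr9:61946770-61946899, minus strand): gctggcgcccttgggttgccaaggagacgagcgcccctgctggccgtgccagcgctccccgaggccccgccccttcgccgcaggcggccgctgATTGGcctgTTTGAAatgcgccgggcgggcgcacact
Prc1 (chr7:80294351-80294480, plus strand): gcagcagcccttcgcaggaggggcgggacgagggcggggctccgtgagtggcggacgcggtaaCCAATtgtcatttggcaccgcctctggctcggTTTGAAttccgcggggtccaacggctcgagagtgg
TTTGAA began 3 bases after the start in Cenpf and Kif23, counted from 1 at the start, 7 in Aspm and 5 before it in Prc1. For S phase, the E2F motif TTTNNCGC occurred in 19 of 44 promoters (43.2%), against 9.19% of tested promoters. Among all lower genes, listed or not, it was not more frequent, at 8.26% of promoters, and at 4% (3 of 75) for genes at least 4-fold lower. The 3 genes with the largest negative changes that hold it in the same stretch are given with that motif in capitals.
E2f2 (chr4:136172174-136172303, plus strand): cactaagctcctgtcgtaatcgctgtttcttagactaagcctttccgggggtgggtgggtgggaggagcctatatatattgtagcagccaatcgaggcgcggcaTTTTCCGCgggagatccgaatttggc
Clspn (chr4:126556880-126557009, plus strand): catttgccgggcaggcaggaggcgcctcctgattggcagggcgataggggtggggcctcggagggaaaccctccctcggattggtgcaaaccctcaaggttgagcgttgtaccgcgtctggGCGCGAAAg
Dtl (chr1:191575515-191575644, minus strand): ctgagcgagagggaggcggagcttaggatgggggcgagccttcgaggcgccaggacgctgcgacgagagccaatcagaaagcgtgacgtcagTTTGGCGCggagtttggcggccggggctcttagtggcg
Clspn, a checkpoint mediator, went from 4114 to 1329.7 and Dtl, a ubiquitin ligase subunit of S phase, from 4296 to 1537. Kif23 and Prc1, which build the midzone of the spindle, went from 4291 and 5367 to 957 and 1365.

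Survival genes changed in both directions, 5 of 25 higher and 3 lower. Bcl2 went from 15105 to 5973, while the related Bcl2l1 (Bcl-xL) went from 3262 to 9466 and Mcl1 changed by -0.22. Cflar, which blocks caspase 8, went from 3760.4 to 14274, and the killer protein gene Bmf went from 221 to 32.8. Bcl2a1b and Bcl2a1d were also higher, but 79.2% of the Bcl2a1b sequence is shared, so reads of this family are uncertain. Of 41 chaperones 4 were higher and 1 lower, and of 36 stress genes 6 were higher and 2 lower. Among all tested genes 10.3% were higher and 8.66% lower. Hspa5, the chaperone of the endoplasmic reticulum, went from 23081 to 55716, Srxn1, an antioxidant gene, from 894 to 6299, and Ddit4, an inhibitor of mTOR, from 6098 to 2083. Of 20 granzymes and killer genes 6 were higher and 0 lower. Gzmb, at 92569 and 118618 scaled reads, changed by 0.36, while the pore gene Prf1 went from 1274 to 3172 and the adhesion receptor Crtam from 71.6 to 651.

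Interferon-induced genes held 9 of 42 higher and 3 lower, with a median of 0.32 that turned negative with ribosomal scaling. The RNA sensor gene Ifih1 went from 635 to 4958, Irgm1 from 3185 to 10183 and Isg15 from 117 to 564, while Ifit2, Gbp7 and Gbp8 were the lower genes and Ifit2 went from 401 to 155 and Gbp7 from 1974 to 914. In CD8 T cells the same list had a median of -0.35, with 1 gene higher and 9 lower.

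Of 46 translation factors 4 were higher and 1 lower, beside 10.3% and 8.66% of all tested genes. Eif6, which keeps ribosomal subunits apart, went from 1791 to 5040.0, Eef1e1 from 1108 to 4026 and Eif1a from 4373 to 9789, while Pdcd4, an inhibitor of the helicase eIF4A, went from 2405 to 881. Of 51 splicing factors only the kinase gene Srpk2 passed 2-fold, from 1535 to 567, and of 34 proteasome genes only Psme3, from 6483 to 13029. These lists had medians of 0.39, 0.18 and 0.30, all of which turned negative with ribosomal scaling. None of 10 measured mitochondrial RNAs passed 2-fold, and their median was -0.14.

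Clock genes included some of the low-level changes. Of 20 measured, 5 were higher and 3 lower, beside 10.3% and 8.66% of all tested genes. Per2 went from 132 to 499 and the heme receptor gene Nr1d1 from 31.1 to 105, whereas Per3 went from 139 to 31.7 and the output factor Dbp from 193 to 62.3. Clock and Arntl, which form the activating pair, changed by -0.08 and -0.14. Among genes of lipid mediators and nuclear receptors, the carbonic anhydrase gene Car2 went from 81.7 to 1487, the vitamin D receptor Vdr from 343 to 894 and the lipid droplet gene Plin2 from 4367 to 1969.5. The glucocorticoid receptor Nr3c1 changed by -0.65.

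Of 57 genes of the actin cytoskeleton 7 were higher and 1 lower, beside 10.3% and 8.66% of all tested genes. Their median of 0.20 turned negative with scaling to the total. Cdc42ep3, an effector of Cdc42, went from 206 to 746, Rhof from 2312 to 6791, the focal adhesion gene Zyx from 3611 to 10224 and the filament-severing Gsn from 7564 to 16532. Actb changed by 0.50, and Coro2a was the lower gene, from 5483 to 2353. In the GIMAP family of lymphocyte GTPases, neighbours went in opposite directions. Gimap5 went from 1355 to 4294 and Gimap7 from 3362 to 1023, while Gimap4 changed by -0.33 and Gimap6 by -0.12.

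Factors that act on AU-rich elements and mRNA decay were 6 of 66 higher and 0 lower. The share of higher genes was near the 10.3% of all tested genes. Zc3h12a (Regnase-1), a nuclease that degrades cytokine mRNA, went from 259 to 1883, Zfp36 (tristetraprolin), which binds AU-rich elements, from 708 to 2237 and Zfp36l1 from 1410.0 to 3944. Zfp36l2 changed by -0.17, Elavl1 (HuR) by 0.61 and Rc3h1 (Roquin) by 0.53. In the microRNA list, the host transcript Mir17hg went from 976 to 4252 and Mir22hg from 1047 to 2776, while Tnrc6b, a silencing cofactor of Argonaute proteins, went from 3813 to 1353 and Ago4 from 99.7 to 39.6.

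The nonamer TTATTTATT, the core of a strong AU-rich element, was more frequent in higher genes. It occurred in 7.35% of the annotated 3′UTRs of tested genes (GENCODE, GRCm38), in 12.2% of those of higher genes, in 15.6% (43 of 275) of those at least 4-fold higher and in 6.69% of those of lower genes, whose 3′UTRs were the longer (median 1373 bases against 993). Target sites of 30 bases are shown for 5 of the genes described above, with the nonamer in capitals and GRCm38 coordinates.
Il2 (chr3:37120897-37120926, minus strand): ttatctgaaaTTATTTATTatattgaattg
Tnf (chr17:35199688-35199717, minus strand): tttgcacttaTTATTTATTatttatttatt
Csf2 (chr11:54247316-54247345, minus strand): atttatttatTTATTTATTtttgcaactct
Il13 (chr11:53631740-53631769, minus strand): cttcttgatcTTATTTATTatggttgtgtg
Rgs16 (chr1:153745330-153745359, plus strand): gtgttaatatTTATTTATTgttaacaaagg
Il2 and Il13 held 1 nonamer each, Rgs16 held 2, Csf2 4 and Tnf 5, the last 2 as overlapping runs. GCLiPP reads RNA that ultraviolet light joined to any protein, and its deposited peaks were called inside 3′UTRs on all mouse T cell experiments pooled, so they do not separate resting from stimulated cells. None of the nonamers of Il2, Tnf and Csf2 lay inside a peak. The Il13 site lay inside a peak with an authors' score of 179 and the Rgs16 site inside a peak with a score of 34. Of 1003 nonamers in tested genes, 54 lay inside one of the 27729 peaks. Among protein-coding genes matched to GENCODE, at least 1 peak was present in 62.3% of 10385 tested genes, 69.1% of 1039 higher and 37.8% of 880 lower genes. The median level of these lower genes was also lower, at 455 scaled reads against 1071, and its part in this difference was not tested.

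Higher genes had shorter spans in the genome. Among the same protein-coding genes, the median span was 14249 bases with 6 exons for genes at least 4-fold higher, 22246 bases with 9 exons for all tested genes and 37106 bases with 9 exons for genes at least 4-fold lower. Of 35 measured small nucleolar RNAs, 21 were higher and 0 lower, but these lie inside host genes and many share sequence, so their reads are uncertain. Of the 1124 higher genes, 1045 encode protein, 55 share at least 20% of their sequence with another gene and 189 overlap another tested gene. Of the 947 lower genes the counts were 882, 31 and 153, and of all 10940 tested genes 10422, 543 and 1988. Sharing and overlap were thus no more frequent among higher or lower genes than among all tested genes. Counting was not stated to use strand, so overlapping genes may share reads.

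Neighbours of cytokine genes were read in windows of 200 kb on each side of the anchor gene. The counts include the anchor and any other cytokine gene of the window, so they do not describe neighbours alone. Of all tested genes 10.3% were higher. Around Il4, 9 genes were measured and 5 were higher. Il13, whose start lies 16.03 kb from that of Il4, and Il5, at 102 kb, were higher with it, and Irf1 at 151 kb had a change of 2.26. Uqcrq, on the other side of Il4, had a change of 1.26. Rad50, which lies between Il13 and Il5, changed by -0.61, and Kif3a, on the other side of Il4, by -0.84. In CD8 cells Il5 and Irf1 changed by -0.06 and -0.33. Around Il10, 4 of 8 genes were higher, Il24, Il10, Mapkapk2 and a predicted transcript that lies within Mapkapk2 on the same strand. The reads of that transcript may belong to Mapkapk2. Around Il2, 3 of 7 were higher, Il2, Il21 and 4932438A13Rik, which went from 11310.1 to 34840.3. Around Tnf, by contrast, 1 of 21 was higher, Tnf itself, and 1 lower. Around Csf2, 3 of 5 were higher and 0 lower, and around Ccl3, 3 of 7 were higher and 1 lower. Around the receptor gene Tnfrsf4, 3 of 17 were higher and 0 lower.

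**Figure D4:**
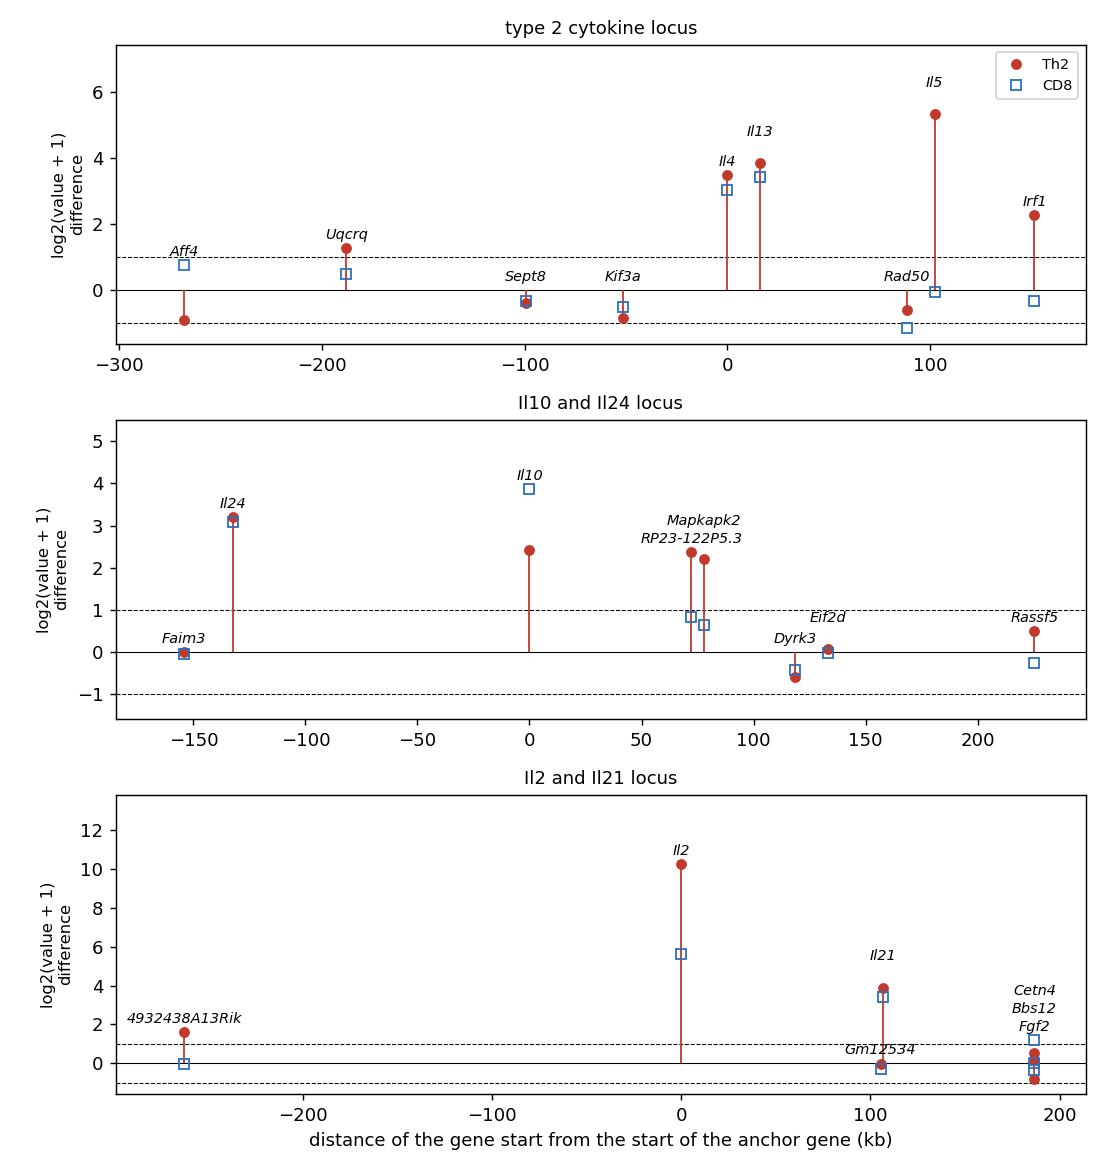
Change on stimulation, as the log2(value + 1) difference, of each measured gene around Il4 (top), Il10 (middle) and Il2 (bottom) against the distance of its start from that of the anchor gene (kb), in Th2 (red circles) and CD8 T cells (blue squares), 1 library a side. In the type 2 cytokine locus Il4, Il13, Il5, Irf1 and Uqcrq stand above the dashed line of 2-fold in Th2, while Rad50 and Kif3a do not.

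CD8 T cells of the same series, also with 1 resting and 1 stimulated library, had been cultured with IL-12 and IL-2 and received the same stimulus. Over the 10940 genes the changes in Th2 and CD8 had a Pearson correlation of 0.731 (Spearman 0.736). No library is shared, but all columns were scaled together and genes are not independent. Of these genes 871 (7.96%) were higher and 535 (4.89%) lower in CD8. The 540 genes higher in both were 48.0% of the 1124 in Th2 and 62.0% of the 871 in CD8, and the 353 lower in both were 37.3% of the 947 and 66.0% of the 535. Among the genes higher in Th2, 11 were lower in CD8, and among those lower in Th2, 10 were higher in CD8.

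The same cytokine mRNA differed in level between the stimulated libraries. Stimulated Th2 cells held 48058 scaled reads of Il13 and stimulated CD8 cells 109, for Il5 24943 and 11.9, and for Il4 16079 and 41.5. Ifng had the opposite order, 1385 in Th2 and 87665 in CD8, as did Ccl3 with 3060.2 and 19911 and Lta with 2252 and 15158. The change of Il2 was 10.26 in Th2 and 5.62 in CD8, where it reached 557. Cxcl2 was listed at 0 in both CD8 libraries.

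Several genes were higher in Th2 and did not pass 2-fold upward in CD8. Gata3 changed by 1.56 in Th2 and -0.59 in CD8, Irf1 by 2.26 and -0.33, the receptor gene Calcrl by 2.93 and 0.25, and Dusp10 by 1.80 and -1.22. Others changed more in CD8 than in Th2. Fos changed by -0.26 in Th2 and 3.38 in CD8, Rxra by 0.57 and 4.10 and Nfkbiz by 0.51 and 3.49. Trp53inp1 changed by 0.28 in Th2 and by -2.74 in CD8. Ribosome biogenesis had a median of 1.16 in Th2 and 0.51 in CD8, where 6 of 60 genes were higher. The G2 and mitosis median was -1.26 in Th2 and -0.81 in CD8, and that of S phase -0.75 and -0.26. Large negative changes of Tet1 (-5.11 and -4.63), S1pr1 (-3.85 and -3.58) and Txnip (-3.21 and -3.39) were present in both. Without replicates none of these differences between cell types was tested.

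**Figure D5:**
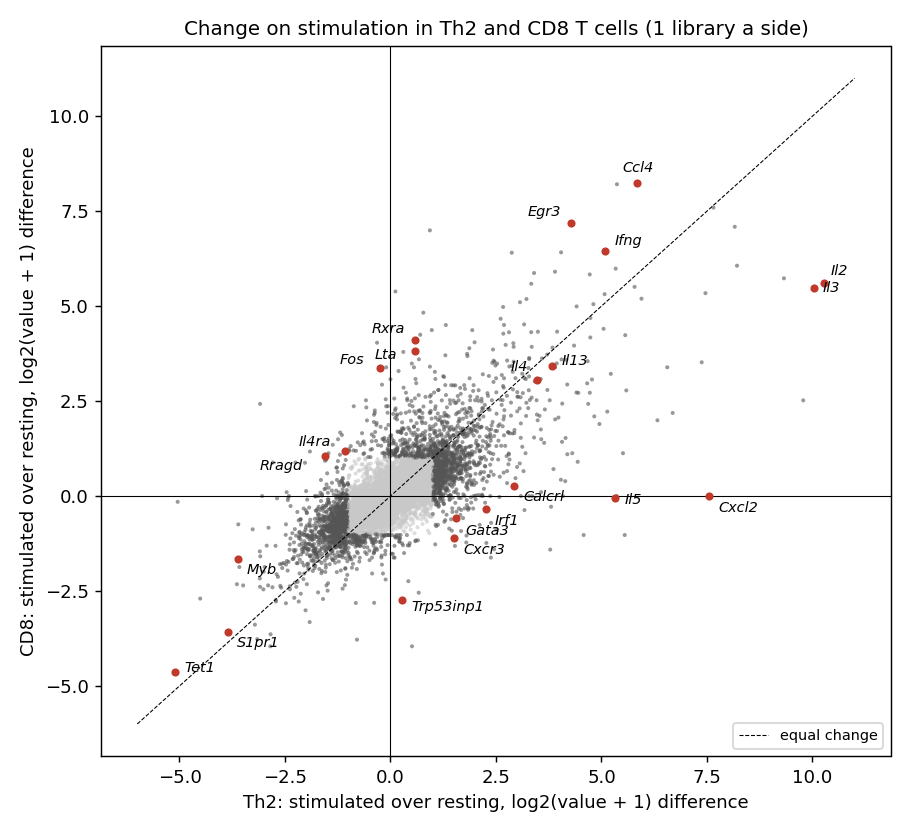
Change on stimulation of 10940 genes in Th2 (x axis) and CD8 T cells (y axis), as differences of log2(value + 1), 1 library a side. Dark points passed 2-fold in at least 1 cell type and named genes are red. Il5 and Cxcl2 lie at about 0 on the CD8 axis, and Ifng, Ccl4 and Egr3 lie above the line of equal change.

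Libraries of Th2 cells treated with actinomycin D, which blocks transcription, form a further pair of 1 resting and 1 stimulated library. The methods place the drug after the stimulus and give several durations, and which of them these libraries had is not given in the sources used here. In this pair, 147 of the 10940 genes (1.34%) were higher and 55 (0.503%) lower, and the correlation of the changes with those of untreated cells was 0.043 (Spearman -0.075). Of the 1124 genes higher in untreated cells 68 were higher under actinomycin D, which is 6.05% of the former and 46.3% of the 147, and of the 947 lower genes 6 were lower, 0.634% of the former and 10.9% of the 55. The 2 pairs share no library, were scaled together, and genes are not independent. Several cytokines were higher in both pairs. Il3 went from 0.920 to 43.8 scaled reads with the drug, Il10 from 2727 to 21697, Il13 from 2066 to 8679 and Cd40lg from 147 to 1345. Il2 went from 28.5 to 57.1 and Il5 from 1157 to 2017, changes of 0.98 and 0.80. The cell cycle lists, lower in untreated cells, had medians of 0.28 (G2 and mitosis) and 0.11 (S phase), and Tet1 a change of 0.41.

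By share of the library, the 10 genes with the largest gain went from 0.712% to 2.71% of the library and the leading 25 from 2.20% to 5.73%. In CD8 cells the same 25 went from 1.59% to 2.83%. Fam107b led them, from 0.142% to 0.597% of the library (34417 to 170699 scaled reads), followed by Il24, Tnfsf8, Jak2, Lcp2, Il10, Il13, Lif, Mapkapk2 and Srgn. On the side of loss, Scd2 (0.259% to 0.0757%), Mki67 and Top2a led.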

How the data were processed

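Polyadenylated RNA of untreated resting and stimulated Th2 cells was sequenced by the authors (Illumina TruSeq Stranded Total RNA kit), 1 library per state. The labels name STAR, Bowtie2 and mm10. How reads were counted, with which tool, annotation and strand setting, is not given in the sources used here. The deposited values, used as signal, are numbers of reads scaled by a single factor in each library. Each value was a whole multiple of its library's step within 0.01 reads, for genes of all lengths, although the methods describe FPKM. A second deposited table repeats these 8 columns beside 12 columns of the authors' fold changes and was not used. The deposited GCLiPP peak list carries a score of the authors whose meaning is not given in the sources used here.

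Genes with a mean of at least 50 were kept, a pseudocount of 1 was added and the log2 difference taken (Python 3.11.15, pandas 2.3.3, numpy 2.4.6, scipy 1.17.1). Counting intervals used the recovered reads. Scripts were tested on simulated data. Alternative scalings used edgeR 4.0.16 and DESeq2 1.42.0. Shared sequence means the percent of 50-base words of a gene's transcripts (GENCODE) found in another gene. The 57 gene lists and the members were chosen with earlier results of these data known. Genes named in the text are members of these lists or of the windows around cytokine genes, the 40 largest changes each way among genes with a mean of at least 250 that are not predicted models, the 25 largest gains and 15 largest losses of library share, and the 15 genes farthest above and below the CD8 change; others are said to be chosen after their values were seen. Some listed genes are counted but not reported here by name.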

Additional observations from a re-analysis of the deposited data

Results flagged for a closer look

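In 8 genes with a mean of at least 50 in both cell types, stimulation changed the Th2 and the CD8 library by 2-fold or more in opposite directions. The difference between the cell types was not tested, since each state is 1 library. The interferon-induced GTPase gene Iigp1 went from 64.6 to 359 scaled reads in Th2 and from 261 to 98.4 in CD8, and the Th2 change minus the CD8 change was 3.86 on the log2 scale. For the phosphatase gene Dusp10 the values were 394 to 1370.4 in Th2 and 269.6 to 115 in CD8, a difference of 3.02. For the chemokine receptor Cxcr3 they were 732 to 2094 and 1861 to 869, a difference of 2.61. Il4ra, a chain of the IL-4 receptor, went down in Th2 (22742 to 10836) and up in CD8 (1685 to 3838), a difference of -2.26. Rragd, a Rag GTPase gene of the mTORC1 pathway, had the same pattern (676 to 229.9 and 585 to 1224), with a difference of -2.62. The others with it were Nipal1 (-2.28), Zfp385a (-2.72) and 4930431P03Rik (-2.76), the last 3 chosen for this pattern after their values were seen. For 4930431P03Rik, 77.0% of the transcript sequence is shared with other genes, so its reads are uncertain.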

How the results depend on the processing

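No paired analysis was possible because each RNA-seq group is 1 library, and leaving out a replicate was not possible for the same reason. The counts of 1124 higher and 947 lower genes stayed within 1.5-fold with a pseudocount of 0.5 or 10, a minimum mean of 10, edgeR TMM, DESeq2 size factors, quantile normalisation, and without predicted models or genes that share sequence. They moved with a minimum mean of 250 (593 lower), with no minimum (3486 higher and 2697 lower), and by construction at 4-fold (297 and 117) and 1.5-fold (2255 and 2000). Scaling to the total gave 1520 lower genes and a median of -0.20 for all genes, and scaling to ribosomal proteins gave 613 higher, 1947 lower and a median of -0.35. Of 496 named genes past 2-fold, none changed direction under the 12 alternatives, and 59 came below 2-fold with scaling to the total, 96 with ribosomal scaling, 35 with quantile normalisation, 20 with TMM and 12 with DESeq2 size factors. Among lists described as higher or lower, those of cytokines, chemokines, TNF ligands, immediate-early factors, NF-kB, ribosome biogenesis, quiescence, S phase and mitosis kept the sign of their median in all 12. No replicate error is known, and depth limits genes with few resting reads, whose intervals are wide.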
